A study of Mus musculus with 21 samples.

Results

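The nuclear-encoded genes of the mitochondrial respiratory chain were followed through 7 sorted populations of mouse bone marrow progenitors. Members were the rows of the count table whose gene type is protein-coding in GENCODE vM21 and whose symbol begins with Nduf, Sdha, Sdhb, Sdhc, Sdhd, Uqcr, Cox4, Cox5, Cox6, Cox7, Cox8 or Atp5. This rule gave 97 genes among 47643 rows, of which 21620 were protein-coding. By name, 46 belonged to complex I (38 subunits and 8 Ndufaf assembly factors), 8 to complex II (4 subunits and 4 Sdhaf assembly factors), 8 to complex III, 18 to complex IV and 17 to complex V. Another 11 rows with such a symbol had a pseudogene type and were left out.

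RNA was taken from C57/B6 bone marrow cells sorted by flow cytometry, with 3 libraries for each population. The populations were CD62L-int, CD62L-high, CD62L-neg and bulk granulocyte-macrophage progenitors (GMPs), and CD62L-high, CD62L-neg and bulk common myeloid progenitors (CMPs). The sample labels write CD62L-low GMP for the CD62L-int GMPs and CD62L-low CMP for the CD62L-neg CMPs. GMPs and CMPs are both lineage-negative, SCA-1-negative and C-KIT-positive cells that carry CD34, and GMPs differ from CMPs in carrying CD16/32. Bulk populations were not divided by CD62L. No source states whether the 3 libraries of a population came from separate mice, so p-values measure the spread between these libraries, which may be technical.

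The respiratory chain sits in the inner mitochondrial membrane. Complexes I and II pass electrons from NADH and succinate to ubiquinone, complex III passes them to cytochrome c, and complex IV reduces oxygen with them. Complexes I, III and IV pump protons, and complex V, the ATP synthase, makes ATP from the resulting gradient. Apart from complex II, each complex also has subunits encoded in the mitochondrial genome, so nuclear and mitochondrial genes supply parts of the same assemblies. Progenitors on the way to granulocytes and monocytes divide actively, and respiration is 1 of the ways in which they obtain energy.

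Libraries held 6145834 to 15263573 counts. Of all counts, 22.4% to 41.1% in 20 libraries fell on just 3 gene models (Gm23935, Gm26917 and Gm42418), and 61.03% in bulk CMP replicate 2, where protein-coding genes took 30.7%. The authors excluded 1 poorly mapped bulk CMP library that they did not identify. All 3 were kept here, and results are also given without replicate 2. Levels are given as CPM, counts scaled to a library of 1000000 with TMM factors. Fcgr3, which encodes part of CD16/32, averaged 139 to 169 CPM in the GMP populations and 7.88 to 14.97 CPM in the CMP populations. Markers of other cell types moved with the groups. The 3 basophil and mast cell genes summed to 480.3 to 809.8 CPM in CD62L-neg GMPs, against 82.4 to 87.6 CPM in bulk GMPs and 2.07 to 3.19 CPM in CD62L-high GMPs. The 5 megakaryocyte and platelet genes summed to 523 to 583 CPM in CD62L-neg CMPs, against 9.40 to 18.02 CPM in CD62L-high CMPs, and the 6 erythroid genes to 255 to 269.8 CPM against 15.6 to 27.4 CPM. The 8 neutrophil genes summed to 19557 to 26006 CPM in the GMP populations and 878 to 8448 CPM in the CMP populations, and B cell, T cell and NK cell markers were at or near 0 in all 7. The part of this cell mixture in the results was not tested, and in bulk samples fewer cells of a type and less RNA per cell cannot be told apart.

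The promoters of 5 called members are printed from RefSeq (GRCm38.p6), each as the window from 250 bases before to 50 bases after the annotated start site, 5′ to 3′ on the gene's strand. Capitals mark matches to the NRF1 core (GCATGCGC) or to the ETS and GABPA core (CCGGAAG), both known from other work at promoters of respiratory genes, on either strand. The windows lie at chrX:106015450-106015749 (plus strand) for Cox7b, chr16:91931581-91931880 (minus) for Atp5o, chr10:80406772-80407071 (minus) for Uqcr11, chr9:108936398-108936697 (plus) for Uqcrc1 and chr4:140961021-140961320 (plus) for Sdhb. They are shown because Cox7b, Atp5o, Uqcr11 and Uqcrc1 had the smallest p-values in the test over the 7 populations given below, and Sdhb because it was called between CD62L-high and CD62L-neg GMPs and not between GMPs and CMPs.
Cox7b: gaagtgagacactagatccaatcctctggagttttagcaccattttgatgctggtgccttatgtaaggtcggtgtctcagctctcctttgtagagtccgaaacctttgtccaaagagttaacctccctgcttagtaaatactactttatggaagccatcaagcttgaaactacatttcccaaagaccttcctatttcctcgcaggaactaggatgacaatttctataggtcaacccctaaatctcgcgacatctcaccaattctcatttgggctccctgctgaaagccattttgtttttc
Atp5o: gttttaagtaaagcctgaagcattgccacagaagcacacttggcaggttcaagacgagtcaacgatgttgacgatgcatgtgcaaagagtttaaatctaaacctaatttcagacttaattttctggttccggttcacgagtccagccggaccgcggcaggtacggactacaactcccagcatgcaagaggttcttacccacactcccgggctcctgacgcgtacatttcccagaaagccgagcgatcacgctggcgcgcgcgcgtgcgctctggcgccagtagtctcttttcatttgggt
Uqcr11: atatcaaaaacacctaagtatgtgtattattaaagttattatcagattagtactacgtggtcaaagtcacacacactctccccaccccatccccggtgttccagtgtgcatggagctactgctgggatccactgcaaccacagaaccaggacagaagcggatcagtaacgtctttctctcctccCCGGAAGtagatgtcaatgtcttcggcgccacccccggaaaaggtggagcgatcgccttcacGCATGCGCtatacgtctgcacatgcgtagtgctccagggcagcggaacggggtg
Uqcrc1: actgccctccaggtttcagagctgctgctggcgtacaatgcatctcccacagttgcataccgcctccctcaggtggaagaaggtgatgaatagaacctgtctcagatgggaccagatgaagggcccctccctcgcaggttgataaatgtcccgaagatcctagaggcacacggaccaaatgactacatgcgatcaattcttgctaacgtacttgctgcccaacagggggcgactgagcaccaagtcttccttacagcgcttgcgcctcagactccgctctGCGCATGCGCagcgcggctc
Sdhb: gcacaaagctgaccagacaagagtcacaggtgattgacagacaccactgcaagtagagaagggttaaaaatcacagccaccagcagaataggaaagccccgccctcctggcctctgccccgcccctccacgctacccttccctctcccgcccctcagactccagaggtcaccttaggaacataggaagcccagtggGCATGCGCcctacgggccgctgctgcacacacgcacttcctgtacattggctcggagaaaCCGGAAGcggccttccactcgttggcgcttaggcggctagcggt
With the first transcribed base counted as 0, the Uqcr11 matches began 66 bases (ETS) and 4 bases (NRF1) before the start. In Uqcrc1 the capitals are 2 overlapping NRF1 matches, on the minus strand from 30 and on the plus strand from 32 bases after the start. In Sdhb the NRF1 match began 54 bases before and the ETS match 6 bases after the start. The windows of Cox7b and Atp5o held neither string, which says only that these letters are not in those 300 bases.

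Promoters were matched for 80 of the 97 members, 2 of them through an older symbol, and 5 members had more than 1 window. The NRF1 core was found for 12 of these 80 members (15%), against 3.05% of all 27025 genes with a window and 6.19% of the 9384 tested protein-coding genes with one. The ETS core was found for 26.2% of members, against 9.93% of all genes and 21% of tested protein-coding genes (1966 of 9384). For this string the share of members thus lay nearer to that of tested protein-coding genes than to that of all genes. The YY1 string AAGATGGCG was found for 8 of the 80 members, against 1.64% and 3.76%. The CREB string TGACGTCA was found for 5.0% of members, against 2.03% and 3.61%. Members held the SP1 string GGGCGG less often than tested protein-coding genes did, at 48.8% against 68.9%, with 38.2% in all genes. The TATA string TATAAA was found for 8 of the 80 members, against 15.7% of all genes and 8.07% of tested protein-coding genes. Both strands were searched for every string, and these shares are descriptions without a test.

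Of the 97 members, 92 passed the filter on low counts and entered the tests. Cox7b2, Cox8b and Cox8c had no count in any of the 21 libraries, where a count of 0 allows up to 3 counts in a library. Cox7a1 had 42 counts in 8 libraries and Ndufa4l2 had 3 counts in 1 library, and both fell under the filter. Members passed the filter through any population in which they were high enough, so the counts and medians that follow describe these 92 members and not all 97.

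Levels of different genes were compared as counts per kilobase of annotated exons, scaled so that all nuclear protein-coding genes of a library sum to 1000000 (transcripts per 1000000), and averaged over the 21 libraries. The median was 276 over the 8 complex III subunits, 219 over 14 complex IV subunits, 211 over 17 complex V members, 182 over the 4 complex II subunits and 126 over 37 complex I subunits. It was 24.6 over the 8 Ndufaf and 17.7 over the 4 Sdhaf assembly factors, and 26.3 over 11854 tested nuclear protein-coding genes. The highest member was Atp5a1, the alpha subunit of the catalytic head of ATP synthase, at 1116. Cox8a, a small complex IV subunit, followed as the highest of its complex at 909. Ndufb11 in complex I reached 376, Uqcr11 in complex III 373 and Sdha, the flavoprotein of complex II, 302. The lowest tested members of their complexes were Ndufb2 at 3.47, Sdhaf3 at 5.09, Uqcrc2 at 149, Cox6a2 at 5.77 and Atp5s, which is not a core subunit of the synthase, at 9.71. Exons of all transcript models were joined, which lowers the level of a gene with long alternative models.

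Several subunits of complexes IV and V come in isoforms from separate genes, and in these progenitors 1 isoform held most of the per-length level of nearly every set. Cox4i1 held 98.6% ± 1.199 of the Cox4i1 and Cox4i2 level (SD, n = 21), and Cox6a1 held 98.8% ± 2.04 against the heart and muscle isoform Cox6a2. Cox6b1 held 91.2% ± 3.67 against Cox6b2, known from testis. Cox7b and Cox8a held all of the level of their sets, and Ndufa4, a subunit now placed in complex IV, held 99.96% against Ndufa4l2. The Cox7a set was divided, with 63.4% ± 7.16 from Cox7a2l, a factor in supercomplexes of complexes III and IV, 36.2% ± 7.33 from Cox7a2 and 0.422% ± 0.766 from Cox7a1. The 3 genes that encode the identical mature c subunit of the ATP synthase rotor gave 66.8% ± 6.16 (Atp5g3), 26.8% ± 6.69 (Atp5g2) and 6.43% ± 1.87 (Atp5g1). Cox6b2 held 15.6% ± 1.83 of its set in CD62L-neg CMPs and 5.24% to 10.3% as the mean of each other population. Cox7a2 held 43.3% ± 5.45 of its set in CD62L-high GMPs, at the top of the populations, and 26.9% ± 1.92 in CD62L-neg CMPs, at the bottom. Reads from pseudogene copies of these short genes cannot be told apart in the counts.

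Summed over the 97 members, GMP populations held more respiratory chain RNA than CMP populations. The sum was 6227 ± 266 CPM in CD62L-int GMPs, 6311 ± 188 CPM in CD62L-high GMPs, 5699 ± 303 CPM in CD62L-neg GMPs and 5859 ± 148 CPM in bulk GMPs (SD, n = 3 each). It was 5156 ± 285 CPM in CD62L-high CMPs, 4339 ± 392 CPM in CD62L-neg CMPs, then 4255 ± 538 CPM in bulk CMPs, or 4563 ± 99.7 CPM without bulk CMP replicate 2 (n = 2). On this TMM scale every GMP library lay above every CMP library, with the lowest GMP library at 5512 CPM and the highest CMP library at 5347 CPM. Neighbours in the order of means overlapped in their libraries, except that CD62L-high CMPs lay between the GMPs and the other CMPs without overlap. As a share of nuclear protein-coding counts, members took 0.935% to 1.02% in CD62L-int GMPs, 0.9408% to 0.99996% in CD62L-high GMPs, 0.864% to 0.953% in CD62L-neg GMPs and 0.898% to 0.934% in bulk GMPs. They took 0.793% to 0.881% in CD62L-high CMPs, 0.692% to 0.824% in CD62L-neg CMPs, and bulk CMPs ranged over 0.654% to 0.781%. On these shares CD62L-high CMPs overlapped both CD62L-neg GMPs and CD62L-neg CMPs, so the separation of libraries held on the TMM scale only.

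**Figure D1:**
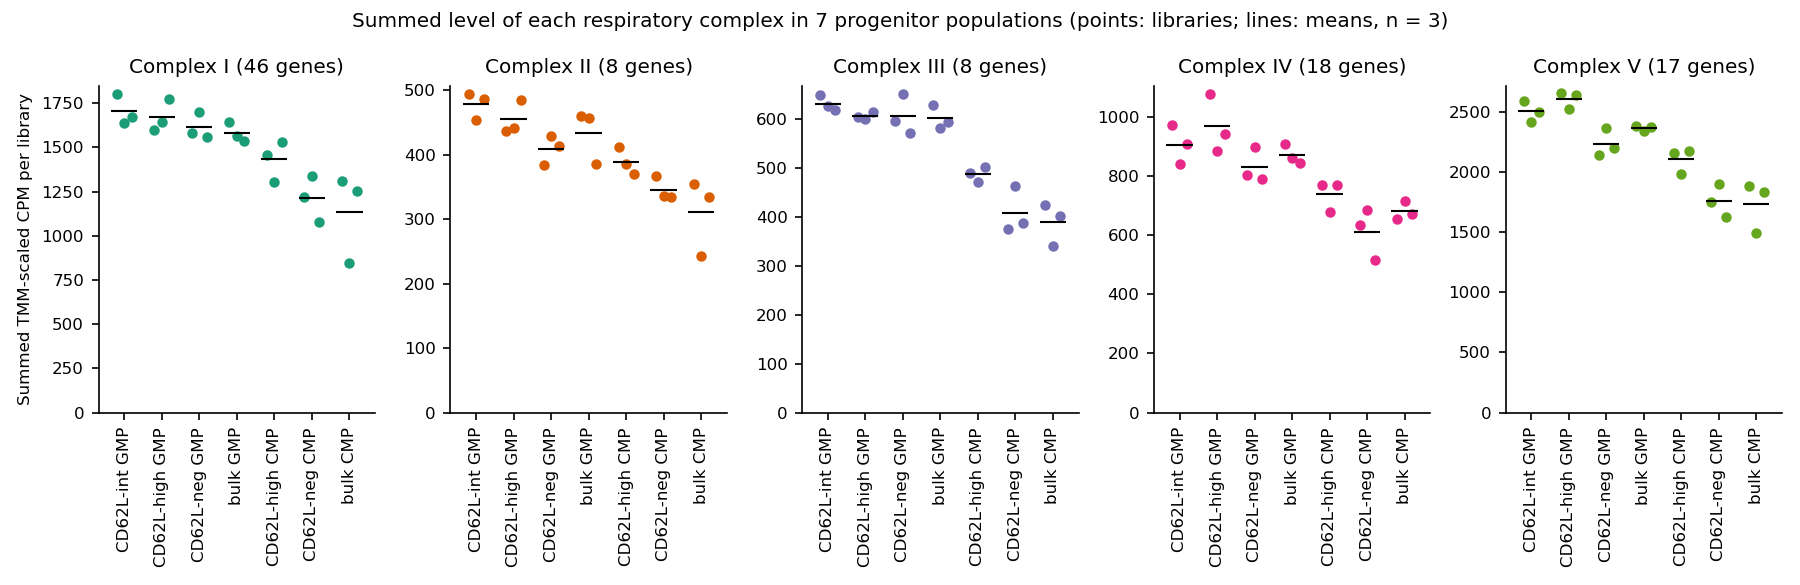
Summed level of the members of each complex in every library, in TMM-scaled CPM on axes that start at 0, with 1 panel per complex and 3 libraries per population; lines are means. In complexes I, III and IV every GMP library lies above every CMP library, and bulk CMP replicate 2 is the lowest point of complexes I, II, III and V at 848, 243, 341 and 1490 CPM.

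In each complex the 4 GMP means lay above the 3 CMP means. Complex III summed to 632 ± 15.8, 606 ± 6.57, 607 ± 41.0 and 602 ± 24.7 CPM in CD62L-int, CD62L-high, CD62L-neg and bulk GMPs, and to 487 ± 16.0, 408 ± 48.4 and 389 ± 43.0 CPM in CD62L-high, CD62L-neg and bulk CMPs (SD, n = 3 each). Complex V summed to 2505 ± 86.8, 2610.5 ± 70.8, 2237 ± 116 and 2369 ± 21.9 CPM in the same GMPs and to 2107 ± 105, 1761 ± 139.6 and 1738 ± 216 CPM in the same CMPs. The ratio of GMP to CMP means was 1.55 in complex III and 1.36 in complex V for bulk cells, 1.486 and 1.27 for CD62L-neg cells, and 1.24 in both complexes for CD62L-high cells, where complex IV had 1.31. Complex I ran from 1583 to 1705 CPM over the GMP means and from 1136 to 1432 CPM over the CMP means. Complex IV ran from 831 to 969 CPM over the GMP means and from 612 to 741 CPM over the CMP means, and complex II from 409 to 479 CPM and from 311 to 389 CPM.

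Gene by gene, the mean was highest in a GMP population for 85 of the 92 tested members, namely CD62L-high GMPs for 39, CD62L-neg GMPs for 21, CD62L-int GMPs for 18 and bulk GMPs for 7. It was lowest in bulk CMPs for 40 members, in CD62L-neg CMPs for 38, in CD62L-high CMPs for 6 and in a GMP population for 8. The SD between libraries of a population, on log2(CPM + 1), had a median of 0.23 over members and 0.29 over the 14801 tested genes. A test for any difference over the 7 populations (edgeR's quasi-likelihood test, Benjamini-Hochberg adjusted p under 0.05 over all tested genes, the threshold used throughout) called 48 of the 92 members, beside 39.0% of all genes. Called were 19 of 45 in complex I, 4 of 8 in complex II, 6 of 8 in complex III, 7 of 14 in complex IV and 12 of 17 in complex V. The smallest adjusted p-values belonged to Cox7b, Atp5o, Uqcrc1, Uqcr11 and Atp5mpl. The test called 54 members when bulk CMP replicate 2 was left out, beside 41.7% of all genes.

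**Figure D2:**
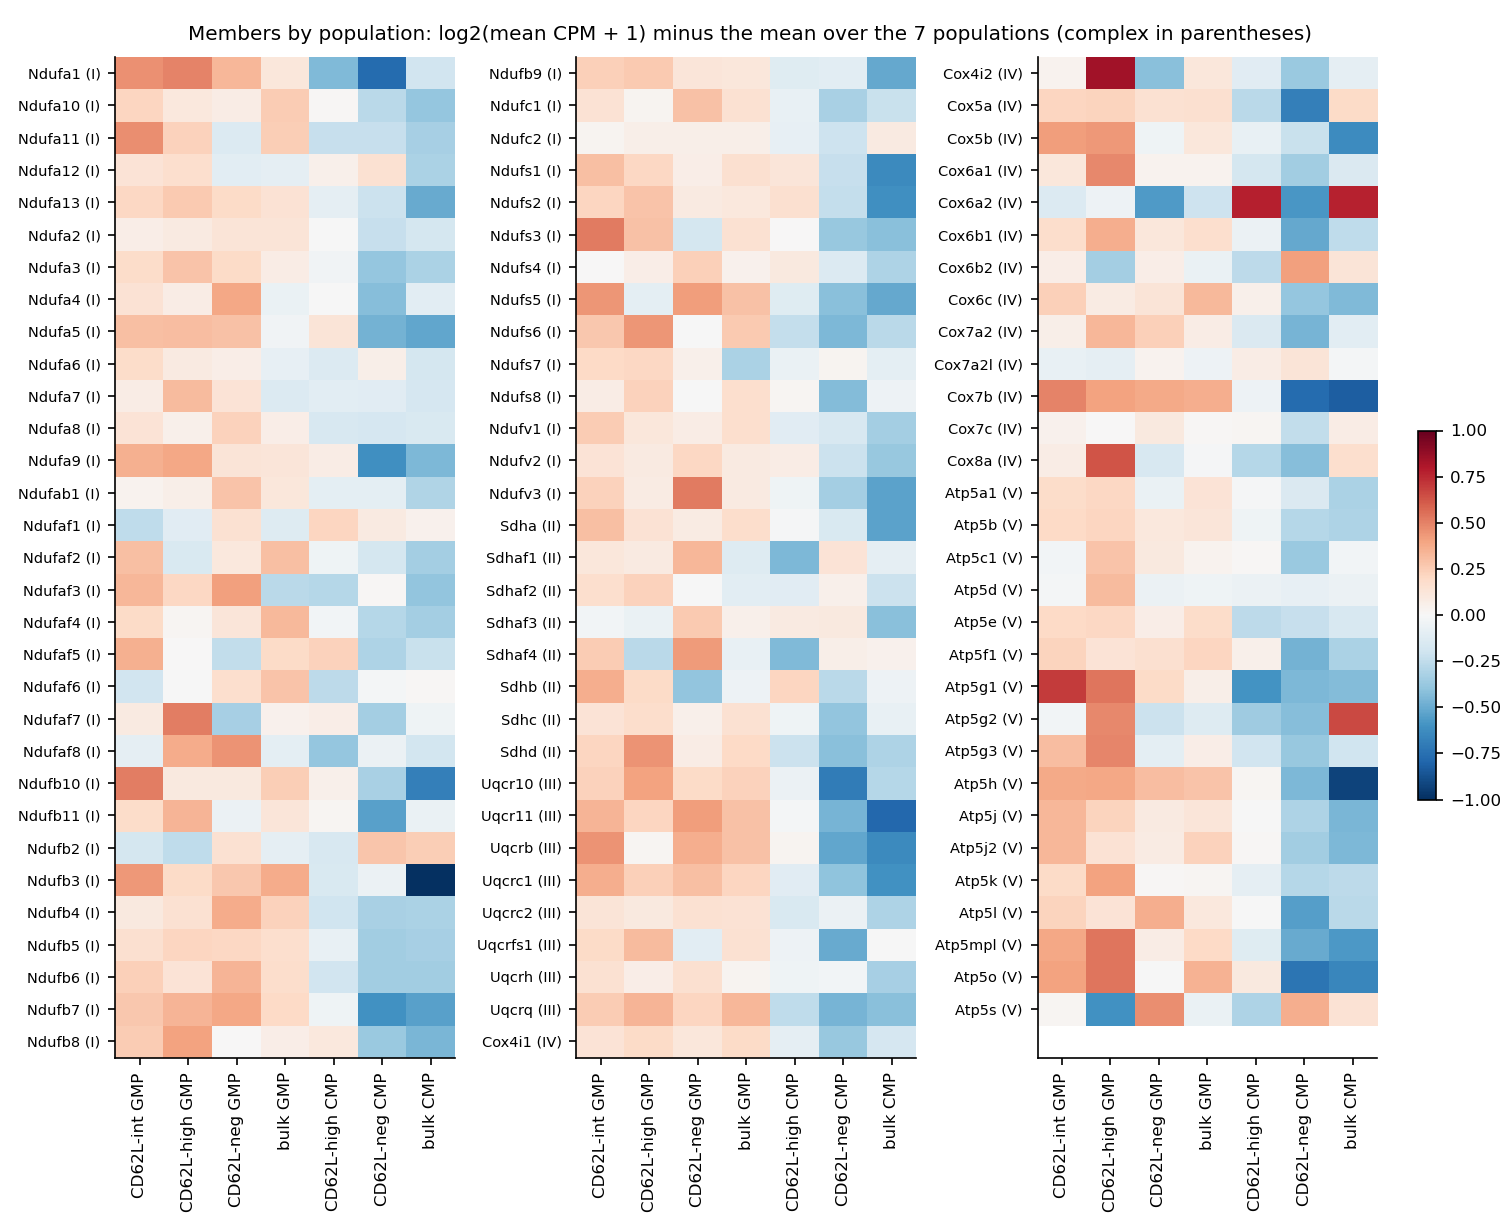
Mean level of each tested member in the 7 populations as log2(mean CPM + 1) minus its mean over populations; rows are genes with their complex in parentheses, and colours end at -1 and 1. The GMP columns at the left are mostly red and the CMP columns at the right mostly blue, with the lowest mean in bulk or CD62L-neg CMPs for 78 of 92 members.

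Bulk GMPs were compared with bulk CMPs, the step of myeloid differentiation that the study followed. Members of all 5 complexes rose in bulk GMPs and none fell. Of 92 members, 28 were called higher, beside 9.72% of all genes called higher, and 0 were called lower, beside 10.9% of all genes. An unadjusted p under 0.05 was reached by 42 members on the higher side and 1 on the lower side. By complex, 11 of 45 rose in complex I, 1 of 8 in complex II, 5 of 8 in complex III, 3 of 14 in complex IV and 8 of 17 in complex V. The median log2 fold change was 0.42 over members and 0.00 over all genes. The libraries did not overlap for 46 members, all higher in bulk GMPs, beside 19.0% of all genes higher without overlap. A fold change over 2 as well was reached by 5 of 92 members, beside 4.19% of all genes, which is near that share.

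These 5 were Ndufb3, Cox7b, Atp5h, Uqcr11 and Atp5o. Cox7b (ENSMUSG00000031231.4, chrX:106015700-106022450), a small accessory subunit of cytochrome c oxidase, had 84.9, 89.3 and 85.6 CPM in bulk GMPs, against 43.3, 30.8 and 38.4 CPM in bulk CMPs. The groups lay far apart for Cox7b, with a log2 fold change of 1.198 ± 0.18 (SE, edgeR adjusted p = 4.6e-05). Atp5o (ENSMUSG00000022956.10, chr16:91925214-91931687), the stalk subunit that confers oligomycin sensitivity, had 103, 103 and 105 CPM in bulk GMPs, against 45.3, 46.0 and 63.3 CPM in bulk CMPs. The 3 GMP libraries were nearly equal, and the log2 fold change was 1.01 ± 0.17 (edgeR adjusted p = 0.00019). Uqcr11 (ENSMUSG00000020163.12, chr10:80402997-80406830), a small accessory subunit of complex III, had 53.4, 44.5 and 53.6 CPM in bulk GMPs, against 30.9, 18.5 and 21.01 CPM in bulk CMPs, a log2 fold change of 1.09 ± 0.19 (edgeR adjusted p = 0.00019).

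All 5 members past this fold had a smaller change without bulk CMP replicate 2. Cox7b then had a log2 fold change of 1.09, and Uqcr11 (0.96) and Atp5o (0.94) fell under the fold of 2. The sizes of Ndufb3 and Atp5h shifted most. Ndufb3, an accessory subunit in the membrane arm of complex I, had 26.3, 22.4 and 23.4 CPM in bulk GMPs, against 10.98, 2.99 and 11.1 CPM in bulk CMPs. Its log2 fold change was 1.45 with all libraries and 1.12 without that replicate. Atp5h, subunit d of the peripheral stalk, had 124, 119 and 132 CPM in bulk GMPs, against 64.3, 14.9 and 81.4 CPM in bulk CMPs. Its log2 fold change was 1.19 with all libraries and 0.78 without that replicate. For both genes the replicate lay several-fold under the other CMP libraries, which themselves stayed under every bulk GMP library.

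Below this fold, further members of complex III were called. Uqcrc1 (ENSMUSG00000025651.14, chr9:108936633-108949623), a core protein of complex III, had 165.5, 169.8 and 164 CPM in bulk GMPs, against 102, 78.6 and 100.5 CPM in bulk CMPs. This was a log2 fold change of 0.83 ± 0.13 (edgeR adjusted p = 9.4e-05). Uqcrq and Uqcrb, accessory subunits of the same complex, rose by log2 0.76 ± 0.18 and 0.92 ± 0.28, and Uqcrc2, the other core protein, by 0.45 ± 0.15. In complex I the members next in size were Ndufb10 (0.91 ± 0.29), Ndufs5 (0.81 ± 0.27) and Ndufs1, the large iron-sulfur core subunit (0.79 ± 0.21). In complex IV Cox6c (0.76 ± 0.24) and Cox5b (0.74 ± 0.17) rose beside Cox7b, and in complex V Atp5mpl (0.77 ± 0.18) and Atp5j2 (0.66 ± 0.23) did.

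Without bulk CMP replicate 2, 20 members were called higher in bulk GMPs, beside 8.27% of all genes, 17 of them among the 28, and 2 passed the fold of 2, Ndufb3 and Cox7b. The median log2 fold change was then 0.32. Without bulk GMP replicate 1, 2 or 3 the count was 14, 16 or 18, beside 6.44%, 6.52% or 6.61% of all genes. With only these 6 libraries in the fit it was 6 of 91 (Cox7b, Atp5o, Uqcr11, Uqcrc1, Uqcrq and Ndufa13), beside 5.04% of all genes, so that in this fit members were called about as often as other genes. On library totals in place of TMM the median of all genes itself shifted to 0.24 and the share of higher genes among all calls moved to 63.4%, against 47.2% on TMM. Without bulk CMP replicate 1 or replicate 3, 1 member was called lower, Atp5g2 (-1.09 and -1.04), a gene of subunit c with 24.4, 22.1 and 22.3 CPM in bulk GMPs, against 20.8, 76.5 and 24.0 CPM in bulk CMPs. Cox7b, Atp5o, Uqcr11, Uqcrc1 and Uqcrq stayed called under each of these alternatives, with each of the 6 libraries left out in turn, with DESeq2 and without a filter.

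**Figure D3:**
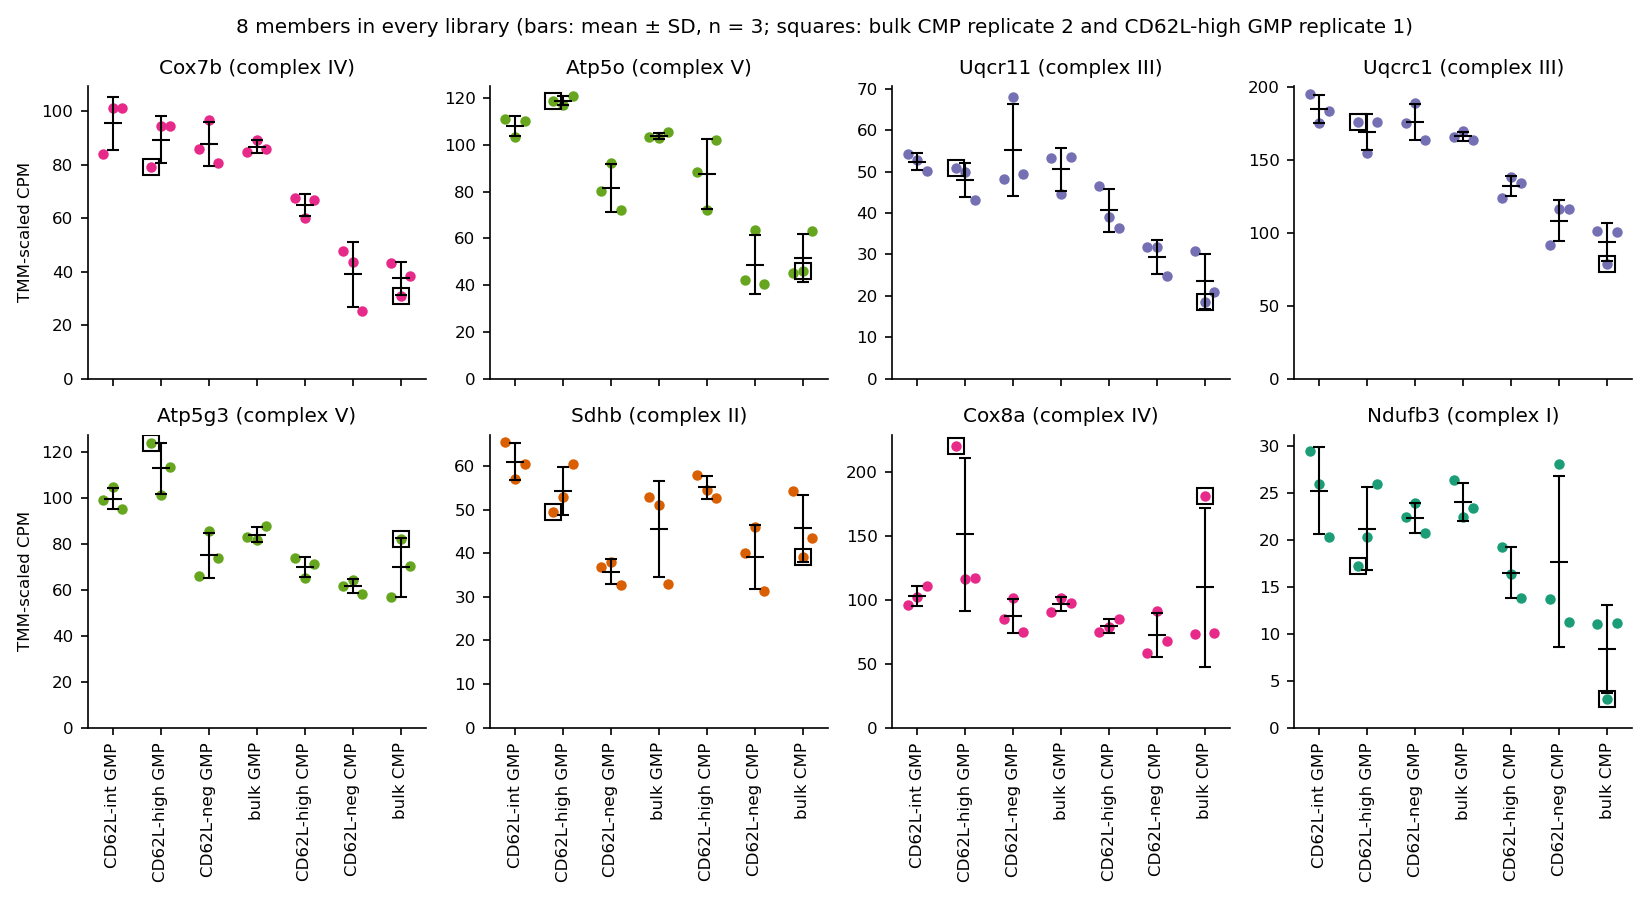
TMM-scaled CPM of 8 members in each of the 21 libraries, with bars for the mean ± SD of 3 libraries and axes that start at 0; squares mark bulk CMP replicate 2 and CD62L-high GMP replicate 1. Cox7b, Atp5o, Uqcr11 and Uqcrc1 are higher in all GMP libraries than in bulk CMPs, Sdhb is lowest in CD62L-neg GMPs among the GMPs, and Cox8a is raised in both marked libraries (182 CPM in bulk CMP replicate 2 and 221 CPM in CD62L-high GMP replicate 1).

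The same step was compared within the cells sorted as lowest in CD62L, CD62L-neg GMPs against CD62L-neg CMPs, and within the CD62L-high cells. Both comparisons were added after values of these data had been seen. The paper set the CD62L gates differently in GMPs and CMPs, and its CD62L-neg GMPs include dim cells. Among CD62L-neg cells, 28 members were called higher in GMPs, beside 11.7% of all genes called higher, and 0 lower, beside 9.77% of all genes. At an unadjusted p under 0.05 there were 39 members, all higher in GMPs. By complex, 10 of 45 rose in complex I, 1 of 8 in complex II, 5 of 8 in complex III, 5 of 14 in complex IV and 7 of 17 in complex V. The median log2 fold change was 0.39 over members and -0.01 over all genes, and libraries did not overlap for 50 members, all higher in GMPs, beside 20.6% of all genes. A fold change over 2 was reached by 3 members, under the share of all genes, which was 6.49%.

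Cox7b had the largest called change here, with 85.8, 96.5 and 80.4 CPM in CD62L-neg GMPs, against 47.8, 43.8 and 25.3 CPM in CD62L-neg CMPs (log2 fold change 1.17 ± 0.18, edgeR adjusted p = 3.4e-05). Ndufa1, a small membrane-bound subunit of complex I, had 26.2, 33.1 and 22.9 CPM in CD62L-neg GMPs, against 14.2, 13.7 and 8.92 CPM in CD62L-neg CMPs (1.16 ± 0.24, edgeR adjusted p = 0.00095). Ndufb7, another accessory subunit, had 54.8, 57.8 and 55.9 CPM in CD62L-neg GMPs, against 25.05, 34.1 and 24.0 CPM in CD62L-neg CMPs. In all 3 genes every GMP library lay above every CMP library, and Ndufb7 had a log2 fold change of 1.02 ± 0.29. In complex III Uqcr10 (0.93 ± 0.21), Uqcr11 (0.91 ± 0.18), Uqcrb (0.91 ± 0.28) and Uqcrc1 (0.70 ± 0.13) rose. In complex IV Cox5a (0.86 ± 0.20), Cox7a2 (0.73 ± 0.22), Cox6b1 (0.64 ± 0.20) and Cox4i1 (0.49 ± 0.14) rose. In complex V Atp5l, subunit g of the membrane part, rose by log2 0.93 ± 0.19, Atp5o by 0.74 ± 0.17, Atp5f1, subunit b of the stalk, by 0.64 ± 0.13, and Atp5mpl by 0.58 ± 0.18. Ndufv3 (0.88 ± 0.23) and Ndufs5 (0.87 ± 0.27) followed in complex I.

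The comparison of bulk cells and that of CD62L-neg cells share no library, though both were fitted with 1 spread. They shared 13 called members, 46.4% of each list. The overlap of all genes called in these comparisons was not counted, so this share is a description and cannot be judged against other genes. These were Ndufa9, Ndufb5 and Ndufs5 of complex I, Uqcr11, Uqcrb, Uqcrc1 and Uqcrq of complex III, Cox7b of complex IV and Atp5b, Atp5f1, Atp5j, Atp5mpl and Atp5o of complex V. Without bulk CMP replicate 2, which is in neither CD62L-neg group but enters the shared fit, 39 members were called between CD62L-neg GMPs and CD62L-neg CMPs, beside 13.9% of all genes. Without CD62L-neg CMP replicate 3 the count was 13, beside 8.18% of all genes, and none then passed the fold of 2. On library totals it was 9 of 92, beside 7.57% of all genes, which is near that share. The megakaryocyte, erythroid and basophil genes described above differ between these groups, and their part was not tested.

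Between CD62L-high GMPs and CD62L-high CMPs 10 members were called higher in GMPs, beside 5.70% of all genes called higher, and 0 lower, beside 6.82% of all genes. At an unadjusted p under 0.05 there were 29 members, all higher. By complex, 2 of 45 rose in complex I, 1 of 8 in complex II, 1 of 8 in complex III, 3 of 14 in complex IV and 3 of 17 in complex V. The median log2 fold change was 0.28 over members and -0.02 over all genes, and in complex IV it was 0.45, against 0.20 in bulk cells and 0.37 in CD62L-neg cells. Libraries did not overlap for 39 members, all higher in GMPs, beside 14.7% of all genes. Atp5g1 alone passed the fold of 2, under the share of all genes, which was 2.53%. Atp5g1 had 35.4, 16.5 and 24.6 CPM in CD62L-high GMPs, against 11.4, 10.2 and 11.6 CPM in CD62L-high CMPs (log2 fold change 1.204 ± 0.28, edgeR adjusted p = 0.0051). Its GMP libraries were spread widely but stayed above every CMP library. Atp5g3, the main c subunit gene, had 124, 101 and 113.5 CPM in CD62L-high GMPs, against 73.7, 65.3 and 71.2 CPM in CD62L-high CMPs (0.69 ± 0.14, edgeR adjusted p = 0.0014). The other called members were Ndufa1 (0.98 ± 0.23), Cox8a (0.93 ± 0.27), Ndufs6 (0.71 ± 0.23), Sdhd (0.68 ± 0.20), Cox6a1 (0.67 ± 0.18), Atp5mpl (0.66 ± 0.18), Uqcrq (0.61 ± 0.18) and Cox5b (0.51 ± 0.16). Atp5mpl and Uqcrq were called in all 3 comparisons of GMPs with CMPs. Without bulk CMP replicate 2 the count was 17, beside 7.75% of all genes. Without CD62L-high GMP replicate 1 it was 2, beside 3.55%, and on library totals, where the median of all genes shifted to -0.26, it was 2 (Atp5g1 and Cox8a), beside 2.28%. Without CD62L-high CMP replicate 1, 2 or 3 it was 4, 2 or 6, beside 3.83%, 3.34% or 3.43% of all genes. The share of higher genes among all calls was 45.5% on TMM and 23.8% on library totals.

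**Figure D4:**
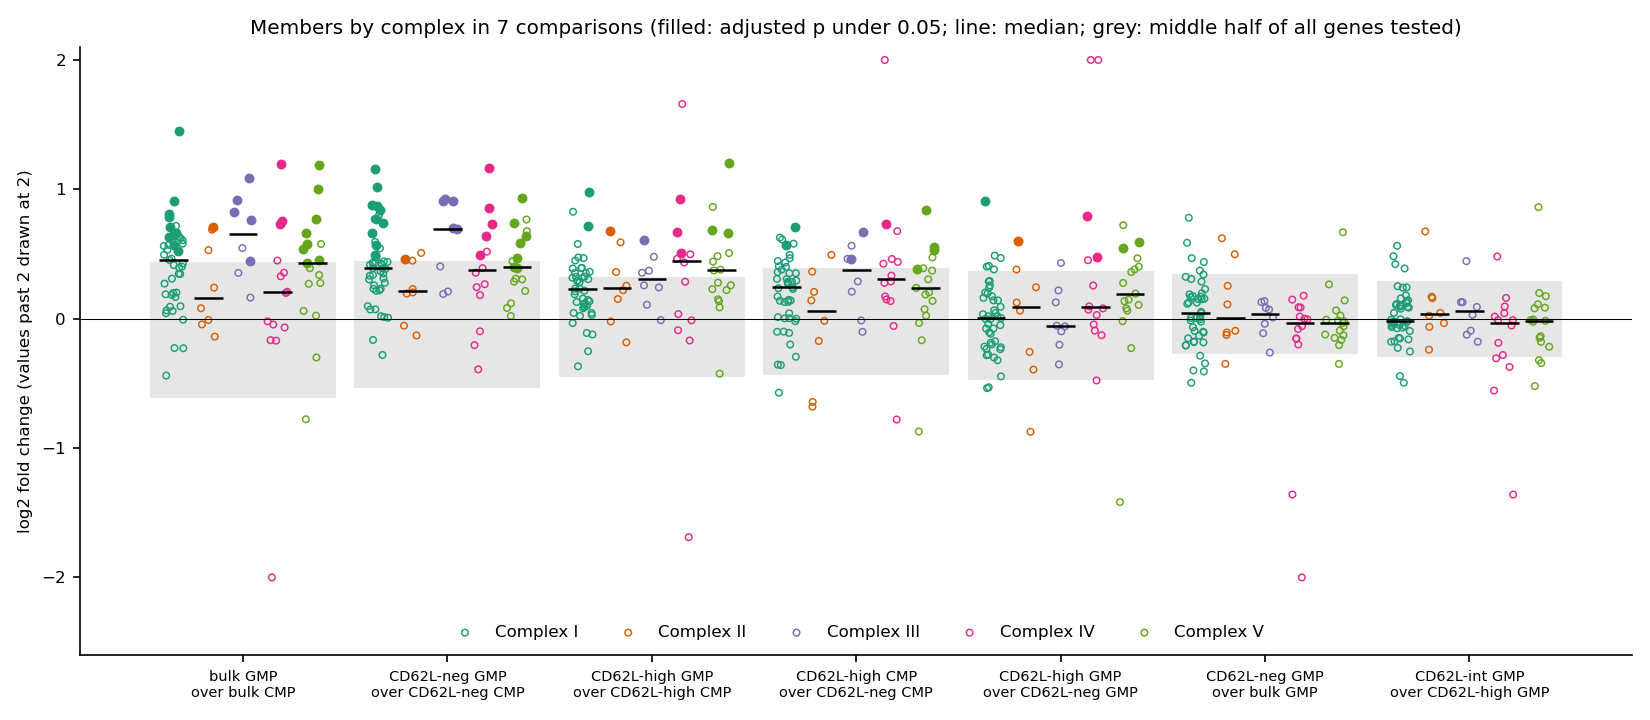
Log2 fold change of the 92 tested members in 7 comparisons, by complex; filled points have an adjusted p under 0.05, short lines are medians per complex, and the grey band spans the interquartile range of all tested genes. The 5 values past 2 in size are drawn at 2. The medians of complex III lie at 0.65 and 0.70 in the first 2 comparisons and near 0 in the last 3.

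Within CMPs, the CD62L-high fraction was compared with the CD62L-neg fraction. The study treats this as a division by lineage potential. In CD62L-high CMPs 9 members rose, beside 9.93% of all genes called higher, and 0 fell, beside 7.27% of all genes. At this share members were called about as often as other genes. An unadjusted p under 0.05 was reached by 23 members on the higher side and 1 on the lower side, and DESeq2 called 1 member lower, the complex II assembly factor Sdhaf1 (log2 fold change -0.69). The median log2 fold change was 0.26 over members, 0.28 over the 80 tested subunits, -0.09 over the 12 assembly factors and 0.01 over all genes. Libraries did not overlap for 37 members higher in CD62L-high CMPs, beside 21.1% of all genes, and for 4 lower, beside 17.8%.

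The 9 members lay in 4 complexes. Atp5o had 88.6, 71.9 and 102 CPM in CD62L-high CMPs, against 42.3, 63.4 and 40.5 CPM in CD62L-neg CMPs (log2 fold change 0.84 ± 0.17, edgeR adjusted p = 0.00089). Cox7b had 67.5, 60.2 and 66.9 CPM in CD62L-high CMPs, against 47.8, 43.8 and 25.3 CPM in CD62L-neg CMPs (0.73 ± 0.18, edgeR adjusted p = 0.0051). Neither gene overlapped between the groups. Ndufa9, an accessory subunit of complex I near its quinone site, rose by log2 0.71 ± 0.18, and Ndufb11 by 0.57 ± 0.15. In complex III Uqcr10 rose by 0.67 ± 0.21 and Uqcrfs1, the Rieske iron-sulfur protein, by 0.46 ± 0.15. In complex V Atp5l (0.55 ± 0.19), Atp5f1 (0.53 ± 0.13) and Atp5c1, the rotating gamma subunit (0.39 ± 0.13), rose, and the libraries of Atp5l overlapped. Cox6a2 had a fitted log2 fold change of 4.98 that rests on 4.19 CPM in 1 CD62L-high CMP library and at most 0.508 CPM in the others, and it did not pass the threshold.

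Without CD62L-neg CMP replicate 3, which had the lowest sum of members in its group, 2 members were called between these CMPs, Atp5f1 and Atp5o, beside 6.81% of all genes. Without CD62L-high CMP replicate 1 or 3 it was 5 or 6, beside 7.07% or 7.50%, and without bulk CMP replicate 2 it was 20, beside 12.5% of all genes. With only the compared libraries in the fit it was 15 of 90, beside 14.6% of all genes, and on library totals it was 1, Atp5o, beside 7.46%. Apart from the fit without bulk CMP replicate 2, these shares of members lay near or under those of all genes. The sums of all members stood at 5291, 4829 and 5347 CPM in CD62L-high CMPs and at 4347, 4727 and 3943 CPM in CD62L-neg CMPs. These sums did not overlap, whereas the shares of nuclear protein-coding counts did.

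Within GMPs, CD62L-high cells were compared with CD62L-neg cells. In CD62L-high GMPs 6 of 92 members rose, beside 8.28% of all genes called higher, and 0 fell, beside 8.65% of all genes. Members were thus called no more often than other genes, and the genes named here are a description of single members. An unadjusted p under 0.05 was reached by 14 members on the higher side and 1 on the lower side, and the median log2 fold change was 0.07 over members and -0.04 over all genes. Libraries did not overlap for 18 members higher in CD62L-high GMPs, beside 15.2% of all genes, and for 5 lower, beside 17% of all genes. By complex the median was 0.00 in complex I, 0.09 in complex II, -0.06 in complex III, 0.09 in complex IV and 0.19 in complex V.

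Sdhb (ENSMUSG00000009863.14, chr4:140961203-140979193), the iron-sulfur subunit of succinate dehydrogenase, had 49.5, 52.8 and 60.4 CPM in CD62L-high GMPs, against 36.7, 37.9 and 32.6 CPM in CD62L-neg GMPs (log2 fold change 0.60 ± 0.18, edgeR adjusted p = 0.020). Atp5g3 had 124, 101 and 113.5 CPM in CD62L-high GMPs, against 65.9, 85.5 and 73.8 CPM in CD62L-neg GMPs (0.59 ± 0.14, edgeR adjusted p = 0.0042). Both were separated without overlap. Atp5o had 118, 117 and 121 CPM in CD62L-high GMPs, against 80.3, 92.2 and 71.9 CPM in CD62L-neg GMPs (0.54 ± 0.17, edgeR adjusted p = 0.028), and was the 1 member called both here and between CD62L-high and CD62L-neg CMPs. Ndufaf7, a methyltransferase needed for complex I assembly, had 17.8, 17.7 and 22.9 CPM in CD62L-high GMPs, against 10.8, 9.97 and 10.3 CPM in CD62L-neg GMPs (0.91 ± 0.28, edgeR adjusted p = 0.027). Cox5b rose by 0.48 ± 0.16. Cox8a had 221, 116 and 117.5 CPM in CD62L-high GMPs, against 85.2, 102 and 74.9 CPM in CD62L-neg GMPs (0.80 ± 0.27). The first of these Cox8a libraries, CD62L-high GMP replicate 1, stood far above the others.

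The calls within GMPs depended on single libraries. With 1 library left out at a time between 1 and 4 members were called higher: 3 without CD62L-high GMP replicate 1, 4 without replicate 2 and 2 without replicate 3, and 2, 4 and 1 without CD62L-neg GMP replicates 1, 2 and 3. The shares of all genes called higher in the same order were 5.94%, 6.92% and 6.89%, then 6.09%, 5.97% and 6.05%. Atp5g3 was called in all 6 of these fits, and Atp5s was called lower in 2 of them, without CD62L-high GMP replicate 3 (log2 fold change -2.11) and without CD62L-neg GMP replicate 3 (-1.73). With bulk CMP replicate 2 left out, 13 members were called higher, beside 10.6% of all genes, and Ndufv3 was called lower (-0.44). On library totals the median of all genes shifted to -0.18, the share of higher genes among all calls moved to 38.2%, against 48.9% on TMM, and 1 member stayed called (Cox8a), beside 4.76% of all genes called higher. The basophil and mast cell genes described above were highest in CD62L-neg GMPs, and their part was not tested.

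CD62L-neg GMPs were also set against bulk GMPs. By edgeR 0 members were called higher, beside 2.91% of all genes, and 0 lower, beside 3.42% of all genes. Before adjustment 4 members had a p under 0.05, all higher, namely Ndufaf3 (log2 fold change 0.78 ± 0.32), Ndufaf8 (0.59 ± 0.28), Ndufa4 (0.47 ± 0.19) and Ndufs7 (0.37 ± 0.17), and DESeq2 called 0. Libraries did not overlap for 9 members higher in CD62L-neg GMPs, beside 13.8% of all genes, and for 8 lower, beside 14.6%. The median was 0.00 over members and 0.01 over all genes. With only these 6 libraries in the fit, Ndufv3 (0.44) and Ndufa4 (0.47) were called higher, beside 7.14% of all genes, and Atp5o (-0.34) lower, beside 7.29%.

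CD62L-int GMPs were set against CD62L-high GMPs. By edgeR 0 members were called higher, beside 1.17% of all genes, and 0 lower, beside 0.858% of all genes, and DESeq2 called 0. Before adjustment Ndufs5 (log2 fold change 0.56 ± 0.26), Atp5d (-0.34 ± 0.14) and Atp5c1 (-0.32 ± 0.13) had a p under 0.05. Libraries did not overlap for 2 members higher in CD62L-int GMPs, beside 8.85% of all genes, and for 7 lower, beside 9.53%. The median was -0.01 over members and 0.00 over all genes. On library totals, where the median of all genes moved to 0.13, the median over members was 0.12 and the share of higher genes among all calls was 91.0%, against 57.7% on TMM.

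The effect of the CD62L sort in CMPs was compared with that in GMPs by an interaction term, CD62L-high over CD62L-neg in CMPs minus the same in GMPs. By edgeR 0 members passed an adjusted p of 0.05, beside 7.35% of all genes, and DESeq2 called 1, Atp5f1. An unadjusted p under 0.05 was reached by 8 members, all with the larger effect in CMPs. They were Atp5f1 (0.55 ± 0.18), Atp5l (0.78 ± 0.27), Ndufa4 (0.76 ± 0.27), Cox7b (0.71 ± 0.25), Uqcr11 (0.66 ± 0.26), Uqcrb (0.92 ± 0.39), Ndufv3 (0.75 ± 0.32) and Ndufs5 (0.84 ± 0.38), as differences of log2 fold changes. The median difference was 0.19 over members and 0.06 over all genes. Without bulk CMP replicate 2, which is in none of the 4 groups but enters the shared fit, 6 of these 8 passed (all but Uqcr11 and Ndufs5), beside 11.3% of all genes. A single member passed in other settings, Ndufa4 on library totals, Uqcrb without a filter and Ndufv3 with the compared libraries only, beside 4.99%, 5.65% and 9.08% of all genes. On library totals the median of all genes moved to 0.24, and the share of positive differences among all calls moved to 80.0%, against 68.7% on TMM.

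Complex II, the 1 complex without mitochondrially encoded subunits, moved unevenly. Sdha, the succinate-oxidising flavoprotein, had 261, 256 and 221 CPM in bulk GMPs, against 184, 80.1 and 185 CPM in bulk CMPs (log2 fold change 0.71 ± 0.20, edgeR adjusted p = 0.013). Its log2 fold change was 0.41 when bulk CMP replicate 2 was left out. Sdhb did not follow the GMP and CMP division, with 52.8, 51.0 and 32.8 CPM in bulk GMPs, against 54.2, 39.1 and 43.6 CPM in bulk CMPs (-0.01 ± 0.18), and was called in 1 of the 7 comparisons, CD62L-high GMPs over CD62L-neg GMPs. In CMPs it had 58.0, 54.6 and 52.7 CPM in CD62L-high cells, against 39.9, 46.1 and 31.3 CPM in CD62L-neg cells, without overlap (0.49 ± 0.18, edgeR adjusted p = 0.061). The membrane anchors Sdhc and Sdhd were called once each, Sdhc between CD62L-neg GMPs and CD62L-neg CMPs (0.46 ± 0.15, with overlap) and Sdhd between CD62L-high GMPs and CD62L-high CMPs (0.68 ± 0.20).

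Bulk CMP replicate 2 stood apart from its group in many members, as in many other genes. On log2(CPM + 1), it differed from the mean of the other bulk CMP libraries by more than 2-fold in 31 of 92 members, 6 above and 25 below. Among the 14801 tested genes it did so in 3908, 1710 above and 2198 below. The median absolute deviation was 0.67 over members and 0.59 over all tested genes, so a deviation of this size was not particular to the members. The signed median was -0.36 over members and -0.08 over all tested genes, so members were shifted further down in this library than genes in general. CD62L-high GMP replicate 1, set beside it for its raised Cox8a, differed from its own group by more than 2-fold in 5 members, beside 1451 of the 14801 genes. Its median of 0.25 over members lay within the 0.09 to 0.42 of the other libraries. Across the 92 members the deviations of these 2 libraries had a Pearson correlation of 0.58 and a Spearman correlation of 0.56, and across all 14801 genes 0.37 and 0.37. Members are not independent replicates, so these are descriptions. Ndufaf2 deviated by -2.64 in bulk CMP replicate 2 and by -1.34 in CD62L-high GMP replicate 1, Ndufb10 by -1.74 and -1.15, and Uqcrb by -1.39 and -1.10. Cox8a deviated by 1.29 and 0.91 and Atp5g1 by 1.02 and 0.79, both upward. Atp5h at -2.20 and -0.40, and Ndufb7 at -2.11 and 0.01, deviated mainly in the first. These 2 libraries also had the largest shares of counts in the 3 gene models named above, and the part of that in the deviations was not tested.

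**Figure D5:**
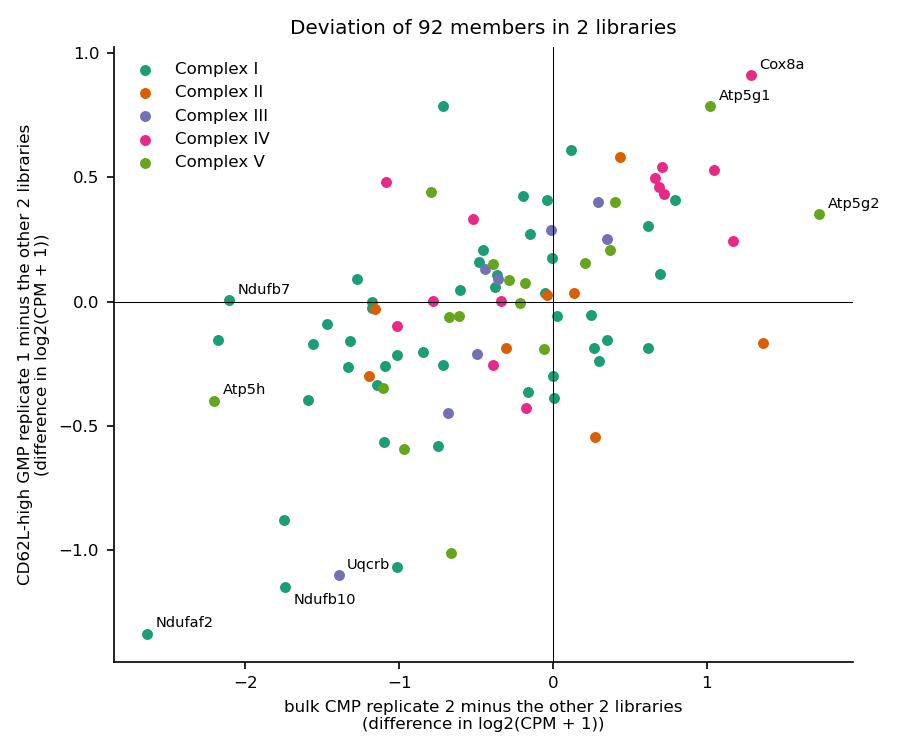
Deviation of each of the 92 tested members from the other libraries of its population in CD62L-high GMP replicate 1 (vertical axis) against bulk CMP replicate 2 (horizontal axis), both as differences in log2(CPM + 1), with complexes in colour. Points run from Ndufaf2 at the lower left to Cox8a and Atp5g1 at the upper right, and the spread along the horizontal axis is the wider one.

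Other mitochondrial genes were listed to place the members, and their values are given with all 21 libraries in the fit only. Genes called higher made up 9.72% of all genes between bulk cells, 11.7% between CD62L-neg cells and 9.93% in CD62L-high over CD62L-neg CMPs. The 77 tested genes of mitochondrial ribosomal proteins had medians much like those of the members. In bulk GMPs over bulk CMPs 17 were higher and 0 lower (median log2 fold change 0.43), and in CD62L-neg GMPs over CD62L-neg CMPs 17 and 0 (0.40). In CD62L-high CMPs over CD62L-neg CMPs 4 were higher and 0 lower (0.25), under the share of all genes. Mrpl51 had the largest change, with log2 fold changes of 1.36 ± 0.18 between bulk cells and 1.43 ± 0.17 between CD62L-neg cells. Of 16 TCA cycle genes, 7 rose in bulk GMPs (0.46) and 8 in CD62L-neg GMPs over CD62L-neg CMPs (0.41), among them Dlat, a subunit of pyruvate dehydrogenase (0.67 ± 0.16 and 0.84 ± 0.15). Of 15 genes of the outer membrane and of protein import, 3 rose between bulk cells and 7 between CD62L-neg cells, including Timm23 of the inner membrane translocase (0.90 ± 0.22). Of 38 assembly factors outside the rule, 3 rose between bulk cells and 1 between CD62L-neg cells, under the shares of all genes.

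Among 10 electron carriers and dehydrogenases outside the rule, 4 rose in bulk GMPs over bulk CMPs, beside 9.72% of all genes. In CD62L-neg GMPs over CD62L-neg CMPs 4 rose, beside 11.7% of all genes. Cycs, which encodes cytochrome c, averaged 41.1 ± 2.98 CPM in bulk GMPs and 14.96 ± 5.29 CPM in bulk CMPs (log2 fold change 1.42 ± 0.21), and 43.6 ± 3.98 CPM in CD62L-neg GMPs and 20.1 ± 1.68 CPM in CD62L-neg CMPs (1.12 ± 0.20). Sqor, which feeds electrons from sulfide into ubiquinone, averaged 17.2 ± 1.52 CPM in bulk GMPs and 3.65 ± 1.35 CPM in bulk CMPs (2.17 ± 0.41). In CD62L-high GMPs over CD62L-neg GMPs 0 of the 10 rose and 2 fell, beside 8.28% of all genes higher and 8.65% lower. The 2 were Gpd2 of the glycerophosphate shuttle (-1.003 ± 0.19) and the proline dehydrogenase Prodh (-0.85 ± 0.24).

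The 13 mitochondrially encoded subunits did not rise with the members between bulk cells. In bulk GMPs over bulk CMPs 0 of 13 were called in either direction, beside 9.72% of all genes higher and 10.9% lower. The median log2 fold change was -0.11, with 1 at an unadjusted p under 0.05 by edgeR and a range of -0.79 to 0.29. In CD62L-high CMPs over CD62L-neg CMPs the median was 0.39, with 11 of 13 above 0. In CD62L-neg GMPs over CD62L-neg CMPs it was 0.24, with 10 of 13 above 0, and none was called in either. Across the 7 comparisons 2 were called, mt-Nd3 (-1.18 ± 0.28) and mt-Co3 (-0.91 ± 0.25). Both were lower in CD62L-neg GMPs over bulk GMPs, beside 3.42% of all genes called lower. Mitochondrial transcripts took 0.419% to 1.37% of protein-coding counts, and the 1.37% was in bulk CMP replicate 2, part of the bulk comparison. In 4 of the 7 populations the library with the highest such share had the lowest share of members.

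Among 6 carrier proteins, Ucp2 rose in CD62L-high GMPs over CD62L-neg GMPs (1.49 ± 0.24), and the adenine nucleotide carriers Slc25a4 (0.69 ± 0.16) and Slc25a5 (0.49 ± 0.12), which exchange ADP and ATP, rose with it. Both carriers also rose in CD62L-high CMPs over CD62L-neg CMPs (0.75 ± 0.16 and 0.52 ± 0.12) and in bulk GMPs over bulk CMPs (0.51 ± 0.16 and 0.65 ± 0.12). Of 15 genes listed as regulators of mitochondrial biogenesis, 0 rose and 2 fell in bulk GMPs over bulk CMPs, beside 9.72% of all genes higher and 10.9% lower. The 2 were Gabpb1, a subunit of the GABP factor (-1.16 ± 0.19), and Myc (-0.48 ± 0.12). In CD62L-high GMPs over CD62L-neg GMPs 1 rose and 3 fell, beside 8.28% of all genes higher and 8.65% lower. The 3 were Myc (-0.82 ± 0.12), Gabpb1 (-0.79 ± 0.19) and Mtf2 (-0.79 ± 0.15). Mtf2 was on the list but is known as a Polycomb partner, so its fall is not counted on as one of a biogenesis regulator.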

How the data were processed

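RNA-seq of 21 libraries, 3 for each of 7 populations, was used as raw read counts per gene deposited by the authors, who used Trim Galore for trimming, HISAT2 for alignment (mm10) and HTSeq for counting (versions not given in the sources used here). The labels name a stranded kit and the methods SMART-Seq v.4, and neither strand-specific counting nor the handling of multiply mapped reads is stated, so short subunit genes with pseudogene copies are uncertain. Gene names, types and positions came from GENCODE vM21 (99.1% of identifiers matched). Populations came from the sample labels. Members and lists were chosen with earlier results of these data known.

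Counts were tested with edgeR 4.0.16 (R 4.3.3, limma 3.58.1) by the quasi-likelihood F test in 1 fit of all 21 libraries, with TMM scaling, filterByExpr and Benjamini-Hochberg adjustment over 14801 genes, at an adjusted p under 0.05. SE values were derived from the F statistic. There were 5 planned comparisons, 2 added ones, a test over all populations and an interaction term. Alternatives were DESeq2 1.42.0, its size factors, library totals, TMM without the 3 gene models, no filter, the compared libraries only, a replicate block, bulk CMP replicate 2 left out and each library left out in turn. The procedure was tested on simulated data. Replicate numbers were not used to pair samples. Correlations of same-numbered deviations stayed under 0.1, which shows no shared deviation but cannot settle whether samples were collected together. Intervals and floors of counts cover counting error only. The level of 1 marker gene is not reported here.

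Named members were those called with a fold change over 2, up to 4 per complex, direction and comparison with the largest called change, no overlap between libraries and at least 10 CPM in the higher group, all members called by the interaction, isoform sets, the 4 complex II subunits and the highest and lowest per length in each complex. Of the other lists up to 3 examples were taken. Members named for an unadjusted p, for a call under an alternative, to complete a list of calls, or for their deviation in a library were chosen after their values were seen.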

Additional observations from a re-analysis of the deposited data

How the results depend on the processing

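No result changed direction in a called value. On library totals the members called higher numbered 1 in CD62L-high over CD62L-neg CMPs, 1 in CD62L-high over CD62L-neg GMPs, 9 in CD62L-neg GMPs over CD62L-neg CMPs and 2 in CD62L-high GMPs over CD62L-high CMPs (0 with a fold over 2), and the interaction called 1. The test over 7 populations then called 24 of 92 members, beside 4432 of 14801 genes, so on this scale members were called less often than genes in general. Medians on library totals were -0.068 in CD62L-high over CD62L-neg GMPs, 0.12 in CD62L-int over CD62L-high GMPs, 0.63 in bulk GMPs over bulk CMPs, 0.0498 in CD62L-high GMPs over CD62L-high CMPs and 0.36 for the interaction. The ratios of summed levels were 1.004, 1.09, 1.59 and 1.04 in the same 4 comparisons, and relative to nuclear protein-coding counts the ratio of CD62L-neg GMPs to CD62L-neg CMPs was 1.17. With the compared libraries only, 15 members were higher in CD62L-high over CD62L-neg CMPs, 2 higher and 1 lower in CD62L-neg over bulk GMPs, 6 higher (2 with a fold over 2) in bulk GMPs over bulk CMPs, and the interaction called 1. Without bulk CMP replicate 2 there were 20 (1 with a fold over 2), 13 higher and 1 lower, 20 (2 with a fold over 2) and 17 in CD62L-high over CD62L-neg CMPs, CD62L-high over CD62L-neg GMPs, bulk GMPs over bulk CMPs and CD62L-high GMPs over CD62L-high CMPs, and 6 by the interaction. DESeq2 called 1 lower and 1 with a fold over 2 in CD62L-high over CD62L-neg CMPs and 1 by the interaction, and no filter gave 1 with that fold there, 1 lower (Atp5g2) in bulk GMPs over bulk CMPs and 1 by the interaction. Fits of the compared libraries only also hold fewer samples, and the causes of all these changes were not tested.

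With each library left out in turn, members called higher numbered 2 to 8 in CD62L-high over CD62L-neg CMPs, 1 to 4 in CD62L-high over CD62L-neg GMPs, 14 to 34 in bulk GMPs over bulk CMPs, 13 to 22 in CD62L-neg GMPs over CD62L-neg CMPs, then 2 to 9 in CD62L-high GMPs over CD62L-high CMPs. Those with a fold over 2 numbered 0 to 1, 0 to 1, 2 to 11, 0 to 5 and 1 to 3, and those called lower 0 to 1 in CD62L-high over CD62L-neg GMPs and in bulk GMPs over bulk CMPs. The 11 came without bulk CMP replicate 1. The median in CD62L-int over CD62L-high GMPs was -0.033 to 0.0855, and the interaction called 0 to 1. With a replicate block 9, 6, 28, 27 and 8 members were called higher in those 5 comparisons, and 0 in the other 2 and by the interaction. The test over 7 populations then called 46, beside 5495 of 14801 genes. The block changed no count by over 1.5 times. Numbers were not treated as pairs.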
